A study of Schizosaccharomyces pombe with 9 samples.

Results

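Poly(A)+ RNA was compared in the fission yeast Schizosaccharomyces pombe between a strain carrying the nup211-1435 allele and a strain labelled as an rsm1 deletion, using 6 of the 9 libraries in the series and every annotated feature. The members were chosen by the column names of the deposited count table alone: 3 libraries of nup211-1435 and 3 labelled rsm1 deletion. The nup211-1435 strain (IAP105) is h- and also carries a wild-type asp1 gene marked with kanMX, the strain labelled rsm1 deletion (ASY240) is h- with natMX at rsm1, and the WT strain (Sp1) is h-. The 3 WT libraries serve here to show which of the 2 mutant strains moved. All cultures were in log phase in the rich medium YES at 30 °C. Each mutant is a single strain, and the drug markers differ between the strains. The effect of a marker and that of the altered basket gene in the same strain therefore cannot be told apart.

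Nup211 and Rsm1 belong to the nuclear basket, the filamentous structure on the nuclear side of the pore complex. Nup211 is a fission yeast member of the Tpr/Mlp family of long coiled-coil proteins that form the basket's filaments, and Rsm1 is a zinc-finger protein with a role in mRNA export. Baskets are known to take part in mRNA surveillance and export and to contact chromatin near active genes. The direct comparison asks where the expression patterns of the 2 basket strains part, which a comparison of each with WT does not test.

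Levels are given in CPM, that is, per 1 M counts of a library after its total was corrected by a TMM factor, a trimmed mean of log ratios. A log2 fold change is nup211-1435 over the strain labelled rsm1 deletion, so that 1 unit is a 2-fold difference, with its standard error (SE). A feature was called at an adjusted p under 0.05 in edgeR's two-sided quasi-likelihood test, adjusted over all features tested. Total counts were 20.984 to 28.106 M per library, and this puts a floor of 3 counts at 0.106 to 0.139 CPM, and replicates differed by a biological coefficient of variation of 3.953%. Floors cover counting error only. The nup211-1435 libraries lay apart from those labelled rsm1 deletion on the second principal component, which held 25.51% of the variance.

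Of 6227 features tested, 3128 were called (50.2%), with 1526 higher (24.5%) and 1602 lower (25.7%) in nup211-1435. Most differences were small: the median fold change was -0.0017 and the middle 90% of features lay between -0.6056 and 0.4703. A difference of at least 2-fold was called for 181 features (2.91%), of which 127 were lower (2.04%) and 54 higher (0.867%) in nup211-1435. Against WT from the same fit, 64.9% of features were called in nup211-1435 (32.9% higher and 32% lower) and 70.7% in the strain labelled rsm1 deletion (36.7% higher and 34.1% lower). Both of those comparisons use the same WT libraries, so their values are only given side by side. Since whole cultures were sequenced, fewer cells with an RNA and less RNA per cell cannot be told apart.

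**Figure D1:**
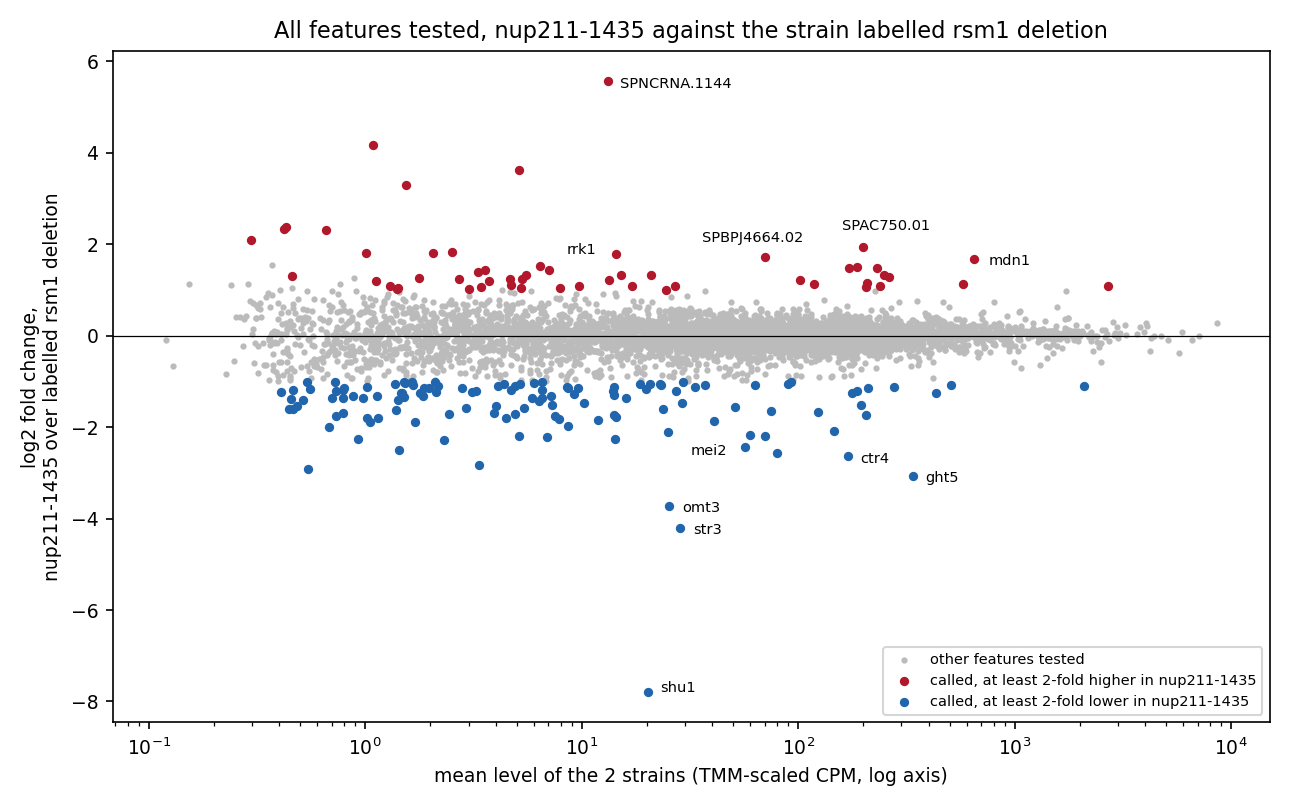
Each point is 1 of the 6227 features tested, with its mean level in the 2 strains (CPM, log axis) against its log2 fold change, nup211-1435 over the strain labelled rsm1 deletion. The 127 blue points are called and at least 2-fold lower in nup211-1435, the 54 red points at least 2-fold higher, and the lowest and highest points are shu1 (-7.79) and SPNCRNA.1144 (5.56).

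The altered loci come before other genes. At SPCC1753.05, rsm1 had 45.2, 43.6 and 43.5 CPM in nup211-1435 libraries, 31.2, 33.2 and 31.0 CPM in those labelled rsm1 deletion and 37.1, 36.7 and 36.3 CPM in WT libraries. The groups did not overlap, as for 58.9% of all features between the mutants, and rsm1 was higher in nup211-1435 (log2 fold change 0.47, SE 0.046, adjusted p = 1.08e-06), but its RNA was far from absent in any library. Its annotated exon spans 2575 nt, and features on the opposite strand overlap 2569 nt of it. Only 891 nt are coding, and no source used here gives the deleted part, so reads outside a deleted part check nothing. The counts therefore do not settle the label. The gene nup211 (SPCC162.08c) had 276, 265 and 260.3 CPM in nup211-1435, 259.7, 258 and 229.7 CPM in the strain labelled rsm1 deletion and 168, 189 and 183 CPM in WT, and it was not called between the mutants (log2 fold change 0.10, SE 0.051, adjusted p = 0.118). The allele itself cannot be seen in such counts. Both genes lie close together, with 5 annotated features between them. Among these, the TORC1 subunit gene tco89 (-0.39, SE 0.040), which overlaps rsm1 on the opposite strand, and the uridine kinase gene urk1 (-0.37, SE 0.031) were lower in nup211-1435, with means of 67.6 and 113 CPM in nup211-1435, 88.4 and 147 CPM in the strain labelled rsm1 deletion, and 68.1 and 104 CPM in WT.

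The largest rise of all features at 10 CPM or more stood at the other marked locus. The noncoding RNA SPNCRNA.1144 overlaps asp1, the inositol pyrophosphate kinase gene, on the opposite strand over 1070 nt. It had 24.3, 26.1 and 26.9 CPM in nup211-1435, 0.487, 0.551 and 0.603 CPM in the strain labelled rsm1 deletion and 0.886, 0.563 and 0.952 CPM in WT (log2 fold change 5.56, SE 0.14, adjusted p = 1.03e-12). Only the strain with kanMX at asp1 had it above 1 CPM. The gene asp1 (SPCC1672.06c) itself had 198, 201 and 197 CPM in nup211-1435, against 148, 155 and 144 CPM in the strain labelled rsm1 deletion and 128, 131 and 133 CPM in WT (log2 fold change 0.42, SE 0.033, adjusted p = 1.46e-07). No source used here gives the strand setting of the read counting, and whether reads of asp1 and of its antisense RNA were kept apart was not tested. Farther along, the noncoding RNA SPNCRNA.1143 (0.86, SE 0.061) and the processome gene utp21 (0.35, SE 0.041) were higher and the guanine deaminase gene gud1 (-0.47, SE 0.069) was lower in nup211-1435. By annotation SPNCRNA.1143 overlaps all 2183 nt of gud1 on the opposite strand, yet their levels differed. The means of gud1 and SPNCRNA.1143 were 68.4 and 39.6 CPM in nup211-1435, 94.7 and 21.7 CPM in the strain labelled rsm1 deletion, and 147 and 14.9 CPM in WT. The label of the strain labelled rsm1 deletion names no marker at asp1. There too gud1 was called lower (-0.63, SE 0.066) and SPNCRNA.1143 higher (0.55, SE 0.068) than in WT. Whether the marker changed these neighbours was not tested.

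Iron uptake genes gave the lowest fold changes of all features, shu1 and str3. Fission yeast takes up iron by reducing and importing it, by importing iron bound to siderophores, and by taking up heme, and the GATA factor Fep1 represses these genes when iron is plentiful. Of 11 iron acquisition genes tested, 8 were lower (72.7%) and 1 was higher (9.09%) in nup211-1435, beside 25.7% and 24.5% over all features. Their median fold change was -0.852, beside -0.002 over all features. Against WT, the medians of the same genes were 0.644 in nup211-1435 and 2.514 in the strain labelled rsm1 deletion, beside 0.007 and 0.014 over all features.

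The gene shu1 (SPAC1F8.02c), which encodes a cell-surface heme-binding protein, had 0.0398, 0.195 and 0.283 CPM in nup211-1435, 43.3, 45.9 and 31.1 CPM in the strain labelled rsm1 deletion and 0.591, 0.604 and 0.609 CPM in WT. It was almost silent in nup211-1435, where replicate 1 was under the floor of 3 counts, and low in WT (log2 fold change -7.79, SE 0.28, adjusted p = 2.86e-09). The size of this fold change is therefore poorly fixed. The siderophore-iron transporter gene str3 had 2.71, 2.49 and 3.57 CPM in nup211-1435, 62.3, 64.4 and 36.0 CPM in the strain labelled rsm1 deletion and 0.295, 0.604 and 1.79 CPM in WT (log2 fold change -4.21, SE 0.36, adjusted p = 7.47e-05). Here nup211-1435 and WT were both low, and the fold change of nup211-1435 over WT, 1.67 (SE 0.71), was not called. The ferric reductase gene frp1 had 17.9, 16.1 and 18.7 CPM in nup211-1435, 70.7, 71.2 and 50.3 CPM in the strain labelled rsm1 deletion and 6.92, 12.4 and 14.2 CPM in WT (log2 fold change -1.87, SE 0.22, adjusted p = 0.00039). All 3 genes were lowest in replicate 3 among the libraries labelled rsm1 deletion, yet that replicate stayed above every library of nup211-1435 and WT.

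Of the remaining members, which were named after their values were seen, the siderophore transporter gene str1 (-1.14, SE 0.27), the iron permease gene fip1 (-0.90, SE 0.15), the ferroxidase gene fio1 (-0.82, SE 0.15), the vacuolar transporter gene abc3 (-0.85, SE 0.077) and the ornithine monooxygenase gene sib2 (-0.52, SE 0.044), which acts early in siderophore synthesis, were lower in nup211-1435. The reductase gene frp2 (-0.36, SE 0.15, adjusted p = 0.0557) and the transporter gene str2 (-0.11, SE 0.046, adjusted p = 0.0579) were not called. The exception was sib1, the ferrichrome synthetase gene, at 364, 373 and 379 CPM in nup211-1435, 158, 158 and 143 CPM in the strain labelled rsm1 deletion and 117, 119 and 122 CPM in WT (log2 fold change 1.28, SE 0.039, adjusted p = 3.56e-12). At 15002 nt of exon it was also the longest protein-coding gene tested, and long genes are described further on.

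Genes for the sensing and use of iron differed less. Of 7 iron regulator genes, 4 were lower (57.1%) and 1 was higher (14.3%) in nup211-1435, beside 25.7% and 24.5% over all features. The repressor gene fep1 itself had 48.7, 53.0 and 56.3 CPM in nup211-1435, 71.9, 72.3 and 76.7 CPM in the strain labelled rsm1 deletion and 61.4, 55.7 and 70.9 CPM in WT (log2 fold change -0.48, SE 0.080, adjusted p = 0.000538). Its partner glutaredoxin gene grx4 (-0.34, SE 0.031) and the CCAAT-binding factor gene php2 (-0.32, SE 0.043) were lower as well, and the iron sensor gene fra2 (0.38, SE 0.092) was higher. Among 16 genes of iron-using proteins, 9 were lower (56.2%) and 5 higher (31.2%). These included the iron-sulfur assembly genes isa1 (-0.51, SE 0.035) and isu1 (-0.43, SE 0.092) on the lower side and the Rieske protein gene rip1 (0.37, SE 0.068) on the higher side.

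Copper uptake genes were also lower in nup211-1435, and here nup211-1435 stood below WT. The genes ctr4 and ctr5 encode the subunits of the high-affinity copper transporter of the plasma membrane, which the copper-sensing factor Cuf1 activates when copper is scarce. The gene ctr4 had 54.6, 29.3 and 56.1 CPM in nup211-1435, 287, 283 and 306 CPM in the strain labelled rsm1 deletion and 63.6, 84.7 and 139 CPM in WT (log2 fold change -2.64, SE 0.35, adjusted p = 0.00102). Its partner ctr5 had 57.9, 45.1 and 62.3 CPM in nup211-1435, 239.9, 228 and 241 CPM in the strain labelled rsm1 deletion and 88.8, 108 and 140.5 CPM in WT (log2 fold change -2.10, SE 0.19, adjusted p = 0.000126). For both genes nup211-1435 was the lowest strain and the strain labelled rsm1 deletion the highest, with no overlap between any 2 strains. The vacuolar copper transporter gene ctr6 (-0.56, SE 0.069) and the metallothionein gene zym1 (-0.62, SE 0.10) were also lower in nup211-1435. In all, 9 of 13 copper and zinc genes were lower (69.2%) and 1 was higher (7.69%), beside 25.7% and 24.5% over all features. The higher one was the zinc transporter gene zip3 (0.16, SE 0.036). The zinc uptake gene zrt1 was not called (0.012, SE 0.37, adjusted p = 0.983).

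**Figure D2:**
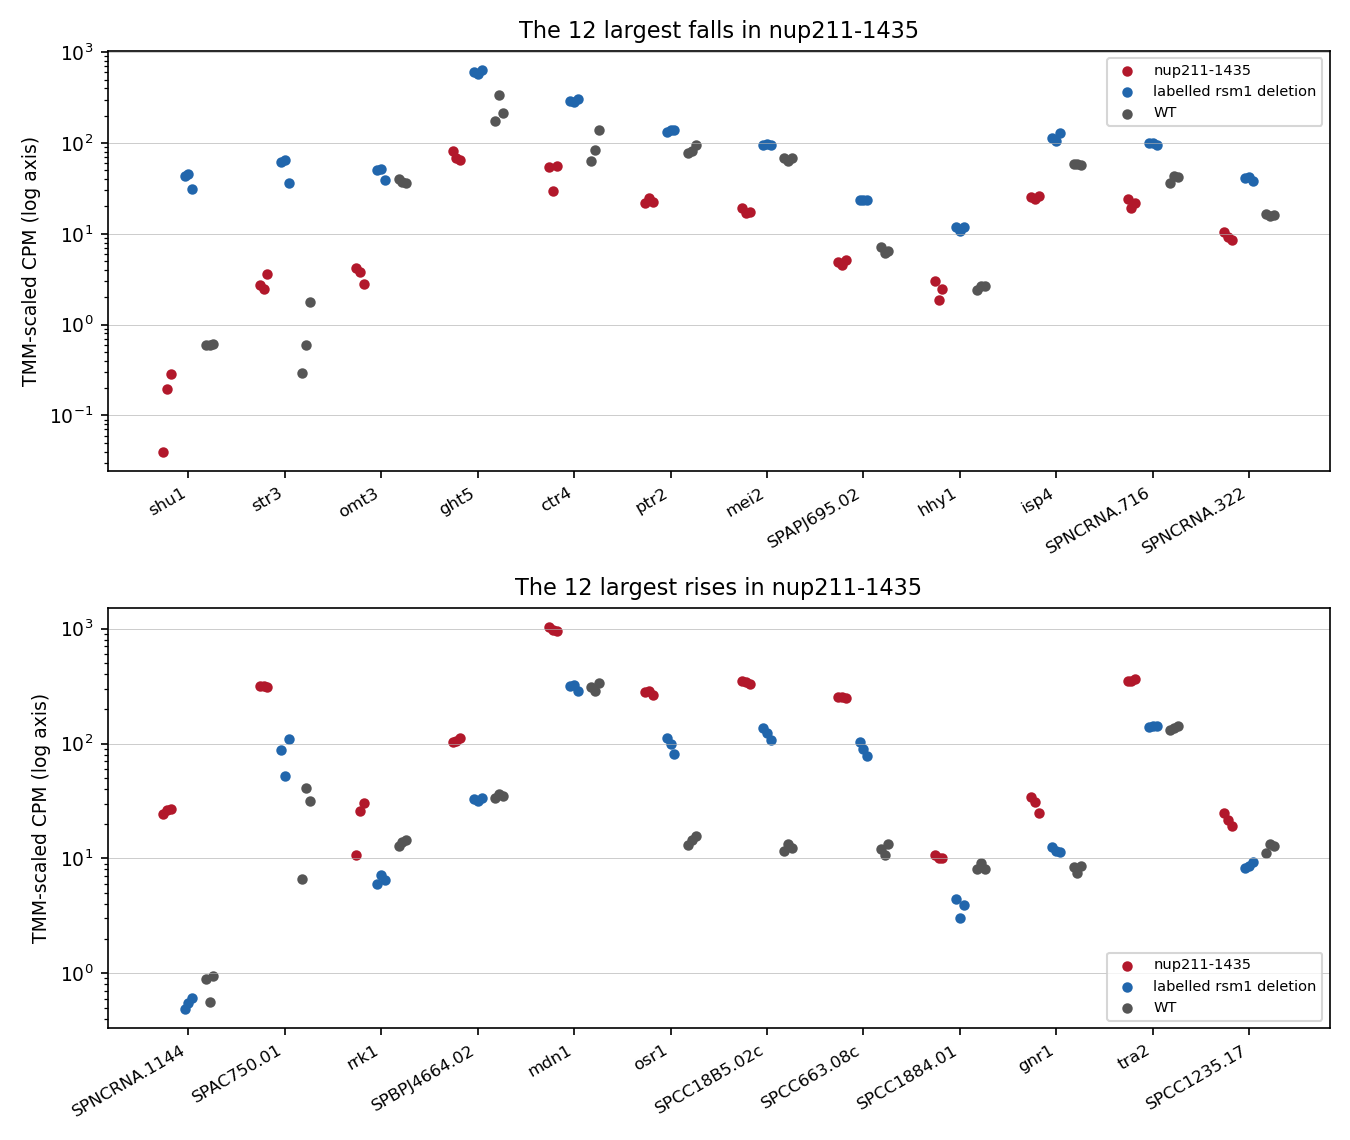
Each point is 1 library, with the 12 largest falls (above) and the 12 largest rises (below) in nup211-1435 along the horizontal axis and the level (CPM, log axis) on the vertical axis, for features with at least 10 CPM in 1 of the mutants. Red is nup211-1435, blue the strain labelled rsm1 deletion and grey WT; for shu1 and str3 the blue points stand above both other strains, while for mdn1 and tra2 the red points do.

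Sugar and nitrogen transport genes were mostly lower in nup211-1435. Of 31 genes for hexose transport and glucose repression, 22 were lower (71%) and 3 higher (9.68%), beside 25.7% and 24.5% over all features. The median of these 31 genes was -0.326. Their medians against WT were -0.077 in nup211-1435 and 0.419 in the strain labelled rsm1 deletion. The high-affinity hexose transporter gene ght5, needed for growth on low glucose, had 82.5, 68.9 and 65.5 CPM in nup211-1435, 606, 569.6 and 639.6 CPM in the strain labelled rsm1 deletion and 174, 337 and 215 CPM in WT (log2 fold change -3.07, SE 0.26, adjusted p = 0.000121). None of the 3 strains overlapped another, although the WT libraries varied among themselves. The dihydroxyacetone kinase gene dak2 had 62.1, 57.7 and 56.9 CPM in nup211-1435, 186, 180.2 and 197 CPM in the strain labelled rsm1 deletion and 67.7, 63.8 and 69.8 CPM in WT (log2 fold change -1.67, SE 0.046, adjusted p = 1.31e-12). In this case nup211-1435 was near WT, at -0.19 (SE 0.048) over WT. The transporter genes ght3 (-1.20, SE 0.15) and ght1 (-1.11, SE 0.18) were lower too. Genes that went the other way were named after their values were seen: the gluconeogenic gene fbp1 (0.39, SE 0.082), the aldolase gene fba1 (0.28, SE 0.033) and the adenylate cyclase gene cyr1 (0.11, SE 0.040).

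Among 27 genes for nitrogen use and amino acid transport, 18 were lower (66.7%) and 2 higher (7.41%) in nup211-1435, beside 25.7% and 24.5% over all features. The median of these 27 genes was -0.239. Their medians against WT were -0.018 in nup211-1435 and 0.173 in the strain labelled rsm1 deletion. The peptide transporter gene ptr2 had 21.96, 24.9 and 22.7 CPM in nup211-1435, 134, 138 and 139 CPM in the strain labelled rsm1 deletion and 77.2, 82.5 and 96.0 CPM in WT (log2 fold change -2.56, SE 0.077, adjusted p = 5.37e-10). The oligopeptide transporter gene isp4 had 25.2, 24.5 and 26.1 CPM in nup211-1435, 114, 106 and 128 CPM in the strain labelled rsm1 deletion and 58.8, 58.8 and 57.3 CPM in WT (log2 fold change -2.19, SE 0.063, adjusted p = 1.3e-11). In both genes WT lay between the mutants. The oxygenase family gene isp7, a regulator of amino acid uptake (-0.87, SE 0.045), and the permease gene per1 (-0.73, SE 0.052) were lower, whereas the proline transporter gene put4 (0.39, SE 0.092) and the ornithine transaminase gene car2 (0.42, SE 0.031), named after their values were seen, were higher. Of 25 genes of the TOR complexes, which couple growth to nutrients, 13 were lower (52%) and 4 higher (16%). The 2 kinase genes themselves, tor1 (0.49, SE 0.037) and tor2 (0.42, SE 0.038), were among the higher ones and have exons of 7501 and 7268 nt. Against WT, 15 of the 25 TOR genes were higher and 5 lower in nup211-1435. The medians were 0.15 there and 0.264 in the strain labelled rsm1 deletion.

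Genes for pheromone signalling and sexual development were mostly lower in nup211-1435. Fission yeast enters meiosis under nitrogen limitation through the transcription factor Ste11 and the RNA-binding protein Mei2, which the kinase Pat1 holds in check. Of 20 genes for pheromone signalling and sexual development, 12 were lower (60%) and none was higher, beside 25.7% and 24.5% over all features. The median of the list was -0.41. The medians of the list against WT were -0.024 in nup211-1435 and 0.228 in the strain labelled rsm1 deletion. That list leaves out the pheromone pathway gene gnr1, which was higher and is described further on. The gene mei2 (SPAC27D7.03c) had 19.2, 16.8 and 17.5 CPM in nup211-1435, 95.3, 97.7 and 94.2 CPM in the strain labelled rsm1 deletion and 69.0, 63.2 and 68.3 CPM in WT (log2 fold change -2.43, SE 0.053, adjusted p = 2.03e-13). Nup211-1435 was far below the other 2 strains, at -1.91 (SE 0.054) over WT, while the strain labelled rsm1 deletion was at 0.52 (SE 0.046). The adaptor gene ste4 of the pheromone MAP kinase cascade (-1.08, SE 0.069) and its MAP kinase gene spk1 (-0.88, SE 0.086) were lower as well. For pat1, at 23.9, 23.9 and 23.3 CPM in nup211-1435 and 42.3, 44.7 and 45.1 CPM in the strain labelled rsm1 deletion, WT had 22.7, 19.1 and 23.5 CPM and so lay beside nup211-1435 (log2 fold change -0.89, SE 0.065, adjusted p = 6.76e-08).

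The mating type markers were set beside these genes. All strains are labelled h-, whose cells use M genes. The M genes mat1-Mc and mat1-Mi were at 0 in all 9 libraries, and the same sequences stand at a silent locus as well. Of the 7 other M markers, 4 were lower in nup211-1435 (57.1%, beside 25.7% over all features) and none higher. Their summed level was 136.2 to 139.2 CPM in nup211-1435, 205.7 to 212.8 CPM in the strain labelled rsm1 deletion and 171 to 195.6 CPM in WT. The pheromone precursor gene mfm2 had 9.87, 9.38 and 9.15 CPM in nup211-1435, 16.9, 19.0 and 17.4 CPM in the strain labelled rsm1 deletion and 47.1, 51.4 and 36.8 CPM in WT (log2 fold change -0.91, SE 0.13, adjusted p = 0.000113). Of 5 P markers tested, 4 were lower (80%) and none higher. Their sum was 554.8 to 560.8 CPM in nup211-1435, 677.3 to 697 CPM in the strain labelled rsm1 deletion and 633.9 to 677.8 CPM in WT. Most of that sum came from the protease gene sxa1, at 509, 508 and 514 CPM in nup211-1435, 604, 606 and 618 CPM in the strain labelled rsm1 deletion and 606, 626 and 582 CPM in WT. The P-specific adhesin gene map4 (-0.92, SE 0.059) was among the lower ones. The part of these markers in the other results was not tested.

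Meiotic RNA elimination, in which Mmi1 marks meiotic transcripts for the nuclear exosome in growing cells, showed no common direction. Of 28 Mmi1 targets, 8 were lower (28.6%) and 6 higher (21.4%), near the 25.7% and 24.5% over all features, with a median of -0.011. The exception in size was omt3 (SPNCRNA.130), a noncoding RNA that forms foci on chromosomes in meiosis. It had 4.22, 3.81 and 2.83 CPM in nup211-1435, 49.99, 52.2 and 39.5 CPM in the strain labelled rsm1 deletion and 40.6, 37.2 and 36.3 CPM in WT (log2 fold change -3.72, SE 0.14, adjusted p = 9.47e-09), so nup211-1435 alone stood apart. Its neighbours in annotated order are mei2 and SPNCRNA.993 (-1.13), both at least 2-fold lower too. Other targets were closer together, for example the kinase gene pit1 (-0.71, SE 0.052), the recombination gene rec7 (-0.87, SE 0.23) and the kinase subunit gene spo6 (0.66, SE 0.13). Of 108 mug and meu genes, which were named for their rise in meiosis, 40 were lower (37%) and 12 higher (11.1%) in nup211-1435. The largest difference was that of mug14, with 2.90, 4.32 and 3.25 CPM in nup211-1435, 14.4, 15.9 and 10.9 CPM in the strain labelled rsm1 deletion and 3.55, 3.46 and 2.82 CPM in WT (log2 fold change -1.98, SE 0.16, adjusted p = 4.55e-07).

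Between the mutants, the 2 stress pathways gave opposite pictures. Sty1 is the stress-activated MAP kinase and Atf1 its main transcription factor, while Pap1 is the AP-1-like factor of the oxidative stress and drug response that the exportin Crm1 carries out of the nucleus. Of 30 genes of the Sty1 and Atf1 pathway, 25 were lower (83.3%) and 2 higher (6.67%) in nup211-1435, beside 25.7% and 24.5% over all features. The median of these 30 genes was -0.272. Against WT, 17 of these genes were higher and 5 lower in nup211-1435, with medians of 0.213 there and 0.543 in the strain labelled rsm1 deletion. The gene rds1, which responds to several stresses, had 104, 95.9 and 85.4 CPM in nup211-1435, 316, 325 and 314 CPM in the strain labelled rsm1 deletion and 123.5, 129 and 119 CPM in WT (log2 fold change -1.74, SE 0.059, adjusted p = 7.85e-10). The small heat shock protein gene hsp9 had 264, 258 and 239.5 CPM in nup211-1435, 612, 619.6 and 592 CPM in the strain labelled rsm1 deletion and 234, 170.2 and 244 CPM in WT (log2 fold change -1.26, SE 0.13, adjusted p = 0.00015). In both the strain labelled rsm1 deletion stood above the rest. The pathway's own factor gene atf1 (-0.49, SE 0.039) and the kinase gene sty1 (-0.18, SE 0.028), both named after their values were seen, were lower. The 2 higher calls of that pathway became 1 without replicate 1 or 3 of nup211-1435 or replicate 1 or 2 of the strain labelled rsm1 deletion. Among heat shock chaperone genes 5 of 21 were lower (23.8%) and 4 higher (19%), near or under the 25.7% and 24.5% over all features. There were 4 higher against 3 lower under upper quartile scaling or without WT replicate 2 or 3, and 6 against 3 without replicate 3 of nup211-1435. The largest difference in that list was in hsp16 (-1.22, SE 0.15), at a mean of 112 CPM in nup211-1435, 261 CPM in the strain labelled rsm1 deletion and 95.8 CPM in WT.

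Of 31 Pap1 and oxidative stress genes, 19 were higher (61.3%) and 4 lower (12.9%) in nup211-1435, beside 24.5% and 25.7% over all features. The median of the list was 0.305. The medians against WT were 0.484 in nup211-1435 and 0.431 in the strain labelled rsm1 deletion. The dehydrogenase gene osr1 had 279, 286 and 267 CPM in nup211-1435, 113, 99.96 and 81.2 CPM in the strain labelled rsm1 deletion and 13.1, 14.5 and 15.5 CPM in WT (log2 fold change 1.498, SE 0.10, adjusted p = 6.26e-06). The quinone reductase gene obr1, a Pap1 target, had 3919, 3575 and 3466 CPM in nup211-1435, 1828, 1732 and 1650.4 CPM in the strain labelled rsm1 deletion and 941, 1014 and 811 CPM in WT (log2 fold change 1.07, SE 0.083, adjusted p = 1.02e-05). Both genes were above WT in both mutants and highest in nup211-1435, without overlap. The same order held for the glutathione S-transferase gene gst2 at 2367, 2250.4 and 2267 CPM in nup211-1435, 1234, 1184 and 1076 CPM in the strain labelled rsm1 deletion and 132, 136 and 146 CPM in WT (log2 fold change 0.98, SE 0.048, adjusted p = 1.17e-08), and for the efflux transporter gene bfr1 (0.72, SE 0.035). The members lower in nup211-1435 were the factor gene pap1 itself (-0.44, SE 0.033), the peroxidase gene gpx1 (-0.43, SE 0.042), the sulfiredoxin gene srx1 (-0.41, SE 0.13) and the Ran-binding protein gene hba1 (-0.23, SE 0.070), whose call was lost without nup211-1435 replicate 2 or 3 or without replicate 1 or 2 of the strain labelled rsm1 deletion (adjusted p = 0.0663 to 0.0780). Each of those omissions left 2 lower calls in the list. Of these, pap1, gpx1 and srx1 were named after their values were seen. The uncharacterized gene SPCC18B5.02c and the short chain dehydrogenase gene SPCC663.08c, which lie in no list here, had means of 339.8 and 252 CPM in nup211-1435, 122 and 90.7 CPM in the strain labelled rsm1 deletion, and 12.3 and 11.97 CPM in WT (1.47, SE 0.069, and 1.47, SE 0.086). The first is overlapped by an antisense RNA, SPNCRNA.1153, which averaged 9.68 CPM in nup211-1435, 5.46 CPM in the strain labelled rsm1 deletion and 6.80 CPM in WT. The second is overlapped over 1130 nt by SPNCRNA.1213, which was not called (0.11, adjusted p = 0.476).

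**Figure D3:**
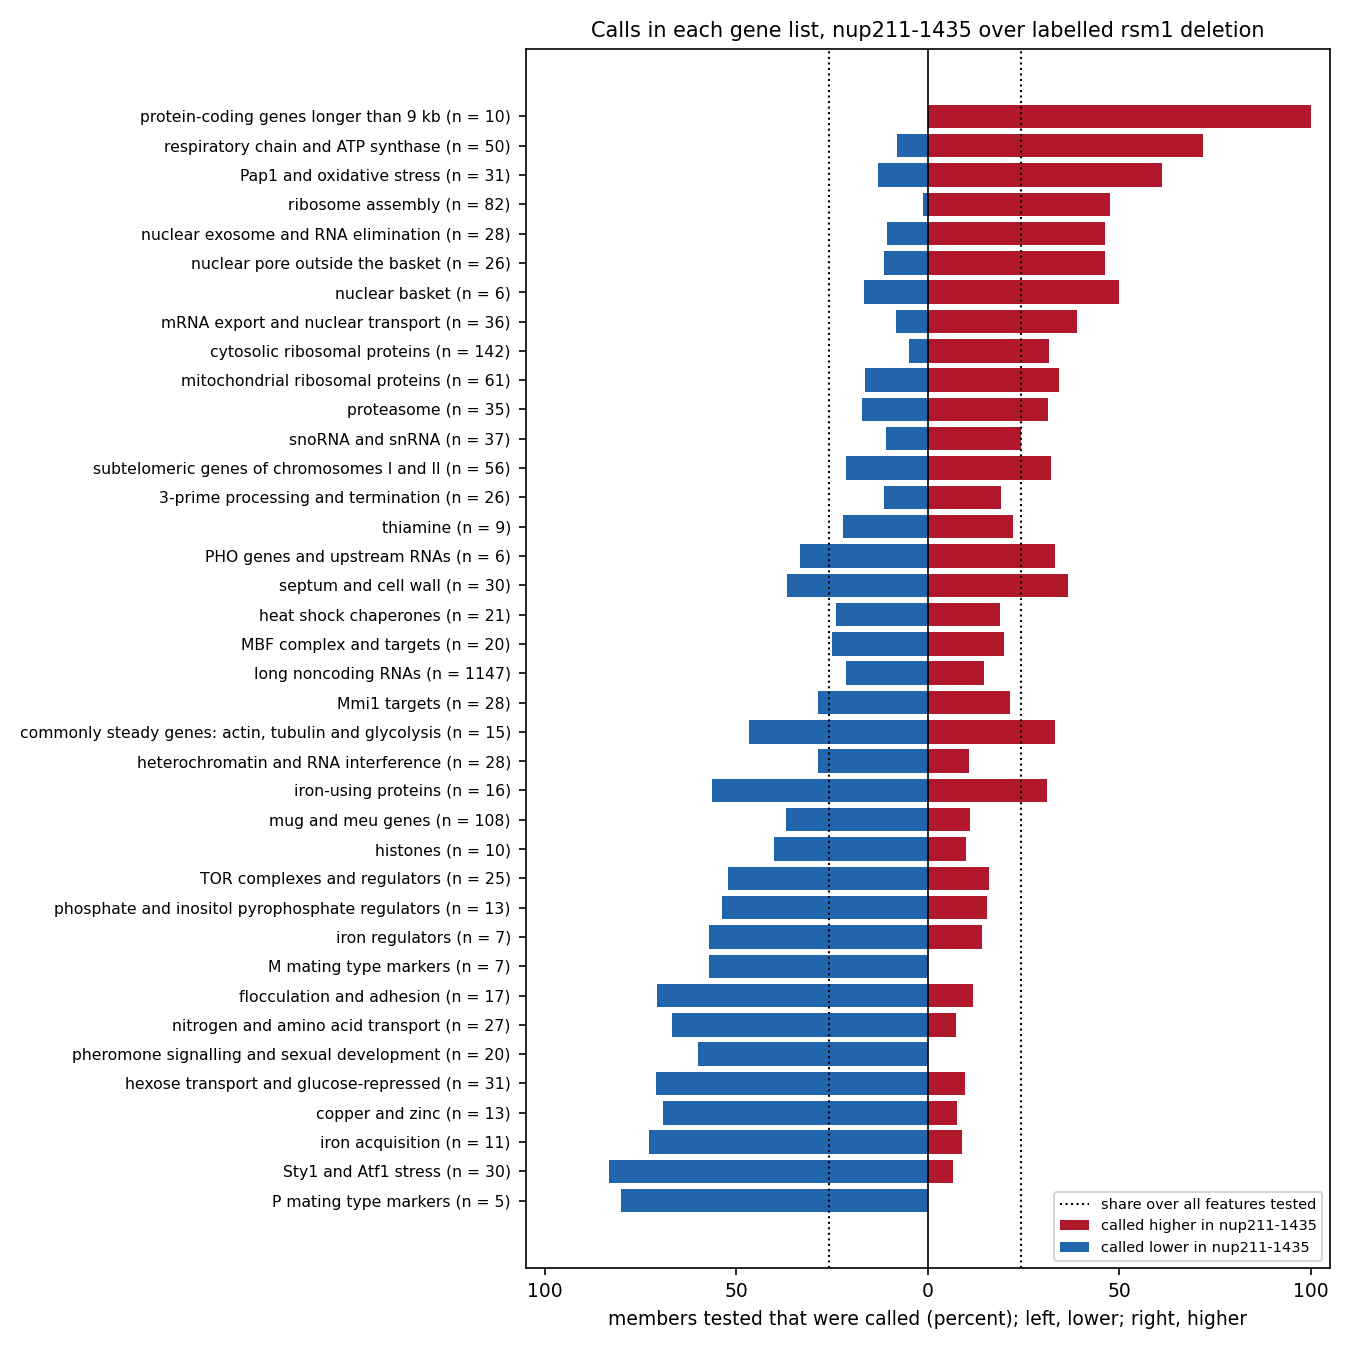
Bars give, for each gene list with at least 5 members tested, the share called higher (right, red) and lower (left, blue) in nup211-1435 than in the strain labelled rsm1 deletion, and the dotted lines the shares over all features, 24.5% and 25.7%. The Sty1 and Atf1 stress, metal, sugar, nitrogen and sexual development lists lean left, while long genes, the respiratory chain, oxidative stress and ribosome assembly lean right.

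The longest genes were higher in nup211-1435. All 10 protein-coding genes with more than 9 kb of exon were called higher, 9 of them at least 2-fold, with a median of 1.186. Against WT all 10 were called higher in nup211-1435 and 7 in the strain labelled rsm1 deletion, with medians of 1.433 and 0.21. In the latter strain vps1302 (0.74, SE 0.042) and rad3 (0.63, SE 0.041) stood highest over WT. Products of the 10 genes are varied, with midasin, dynein, acetyltransferase scaffolds, lipid transfer proteins, a checkpoint kinase, a ubiquitin ligase and a peptide synthetase among them.

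The midasin gene mdn1, whose product remodels the large ribosomal subunit, had 1034, 973 and 946 CPM in nup211-1435, 317, 322 and 286 CPM in the strain labelled rsm1 deletion and 312, 289 and 338 CPM in WT (log2 fold change 1.67, SE 0.062, adjusted p = 6.98e-09). The glycoprotein gene SPBPJ4664.02 had 104, 106 and 112 CPM in nup211-1435, 32.8, 31.3 and 33.7 CPM in the strain labelled rsm1 deletion and 33.8, 36.3 and 35.1 CPM in WT (log2 fold change 1.72, SE 0.046, adjusted p = 1.03e-12). The scaffold gene tra2 had 347, 352 and 368 CPM in nup211-1435, 140.4, 141 and 143 CPM in the strain labelled rsm1 deletion and 132, 137 and 143 CPM in WT (log2 fold change 1.33, SE 0.035, adjusted p = 1.03e-12). In all 3 genes the other 2 strains lay close together and nup211-1435 stood well above them. The remaining genes, most of them named after their values were seen, in order of length were the dynein heavy chain gene dhc1 (1.22, SE 0.058), tra1 (1.07, SE 0.040), the ubiquitin ligase gene ptr1 that is needed for mRNA export (1.13, SE 0.036), the lipid transfer genes vps1301 (1.13, SE 0.050) and vps1302 (1.15, SE 0.040), and, as the single member under 2-fold, the checkpoint kinase gene rad3 (0.59, SE 0.040, 9446 nt).

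The lean towards nup211-1435 appeared over a range of lengths, in classes some of which were drawn after the values were seen. Between 8 and 9 kb, all 8 genes were called higher, with a median of 0.524. Between 7 and 8 kb, 12 of 14 were higher and none lower, with a median of 0.333. Between 6 and 7 kb, 19 of 30 were higher and 4 lower (median 0.203), and between 4 and 6 kb, 82 of 249 were higher and 84 lower (median 0.006). By median both mutants lay above WT in these classes. At 4 to 6 kb, the medians over WT were 0.296 in nup211-1435 and 0.313 in the strain labelled rsm1 deletion. In the same order they were 0.515 and 0.298 at 6 to 7 kb. At 7 to 8 kb they were 0.624 and 0.213, and at 8 to 9 kb 0.842 and 0.306. Just under the 9 kb limit stood the kinase gene tel1 at 8969 nt (0.70, SE 0.043) and the glucan synthase gene ags1 at 8667 nt (0.46, SE 0.032), and just above it vps1302 at 9082 nt. Shorter classes held 592 lower against 319 higher of 1606 genes at 2 to 4 kb (median -0.048), and 295 higher against 146 lower of 950 genes under 1 kb (median 0.049). Length here is that of a reference annotation of another assembly version than the one the authors used, and RNA integrity per library was not measured in these files.

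**Figure D4:**
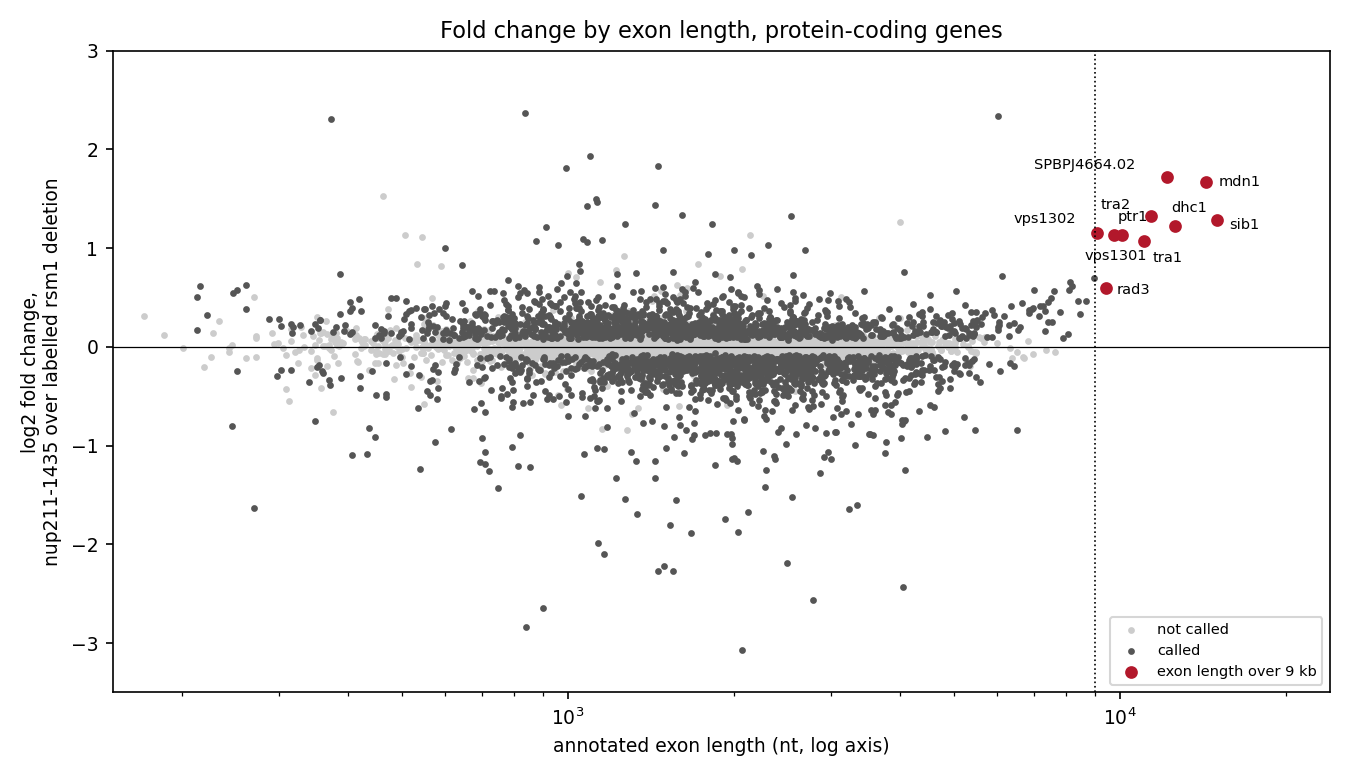
Each point is 1 of 4993 protein-coding genes, with annotated exon length (nt, log axis) against the log2 fold change, nup211-1435 over the strain labelled rsm1 deletion, and 4 genes lie outside the vertical range. The 10 red points over 9 kb lie between 0.594 and 1.719.

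Genes for energy and translation mostly differed by less than 2-fold. Of 50 genes of the respiratory chain and ATP synthase, 36 were higher (72%) and 4 lower (8%) in nup211-1435, beside 24.5% and 25.7% over all features. The median of these 50 genes was 0.322. Their medians against WT were -0.099 in nup211-1435 and -0.396 in the strain labelled rsm1 deletion. The cytochrome bc1 subunit gene qcr7 had 245, 263 and 268 CPM in nup211-1435, 162, 170.4 and 197 CPM in the strain labelled rsm1 deletion and 266, 254 and 261 CPM in WT (log2 fold change 0.55, SE 0.062, adjusted p = 2.9e-05). In this gene nup211-1435 overlapped WT. The cytochrome oxidase genes cox8 (0.58, SE 0.076) and cox7 (0.55, SE 0.077) and the bc1 gene qcr1 (0.52, SE 0.076) were higher as well, while the succinate dehydrogenase gene sdh1 was lower (-0.33, SE 0.031). None of the 36 mitochondrially encoded features passed the low-count filter.

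Of 82 ribosome assembly genes, 39 were higher (47.6%) and 1 lower (1.22%), beside 24.5% and 25.7% over all features. The median of the list was 0.116, and 0 to 2 of its genes were lower when 1 library was left out. In this list, the processome gene utp20 (0.57, SE 0.048, 7592 nt), the export factor gene arx1 (0.42, SE 0.042) and rix1 (0.40, SE 0.048) were higher. Of 142 cytosolic ribosomal protein genes, 45 were higher (31.7%) and 7 lower (4.93%), with a median of 0.052. Their medians against WT were -0.373 in nup211-1435 and -0.424 in the strain labelled rsm1 deletion. Values of single ribosomal protein genes are uncertain, since many have a near-identical copy. Without replicate 2 of nup211-1435, 27 were higher, and without replicate 2 of the strain labelled rsm1 deletion, 26 were. Mitochondrial ribosomal protein genes were higher in 21 (34.4%) and lower in 10 (16.4%) of 61. Proteasome genes were higher in 11 (31.4%) and lower in 6 (17.1%) of 35. The 1 large difference among proteasome genes, in rpt6, belongs to a block of neighbours described further on. Without replicate 1 of nup211-1435, 3 proteasome genes were lower.

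Genes of the pore and of RNA export and decay differed little in size. Over all features 24.5% were higher and 25.7% lower. Of 6 basket genes, 3 were higher (50%) and 1 lower (16.7%). The gene rsm1 itself, alm1 (0.14, SE 0.051) and nup60 (0.11, SE 0.030) were higher, and nup124 (-0.14, SE 0.029) was lower. The call of alm1 was lost under scaling by total counts and without nup211-1435 replicate 1 or 2, replicate 3 of the strain labelled rsm1 deletion or WT replicate 2 (adjusted p = 0.0510 to 0.113). Of 26 other nucleoporin genes, 12 were higher (46.2%) and 3 lower (11.5%), and none differed 2-fold. Among 36 mRNA export and nuclear transport genes, 14 were higher (38.9%) and 3 lower (8.33%). Only 1 was lower without replicate 2 of nup211-1435 or without replicate 1 or 2 of the strain labelled rsm1 deletion. The higher ones were led by ptr1, which is also one of the long genes, and the nuclear import gene nxt2 (0.34, SE 0.049). The export receptor gene mex67 was not called (-0.085, SE 0.063, adjusted p = 0.293). Of 28 exosome and RNA elimination genes, 13 were higher (46.4%) and 3 lower (10.7%). The exosome core gene rrp45 (0.46, SE 0.051) and the zinc-finger gene pir2 (0.30, SE 0.032) were among the higher ones. In the 3′-processing and termination list, 5 of 26 were higher (19.2%) and 3 lower (11.5%), both under the shares of all features. They included the helicase gene sen1 (0.30, SE 0.044) and the cleavage factor gene pcf11 (-0.22, SE 0.032). Without replicate 3 of nup211-1435 or replicate 1 labelled rsm1 deletion the balance of that list turned to 3 higher and 4 lower.

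The phosphate-responsive PHO genes are repressed in rich medium by transcription of noncoding RNAs upstream of them. The acid phosphatase gene pho1 had 449, 438 and 445 CPM in nup211-1435, 252, 252 and 285 CPM in the strain labelled rsm1 deletion and 1194, 1306 and 1175 CPM in WT (log2 fold change 0.76, SE 0.050, adjusted p = 1.44e-07). Both mutants were under WT, and nup211-1435 was the nearer. The phosphate transporter gene pho84 had 977, 901 and 886 CPM in nup211-1435, 746, 744 and 804 CPM in the strain labelled rsm1 deletion and 1560.2, 1513 and 1456 CPM in WT (log2 fold change 0.27, SE 0.042, adjusted p = 0.000138). The RNA prt2 upstream of pho84 had 66.0, 70.4 and 81.6 CPM in nup211-1435, 132, 137 and 132 CPM in the strain labelled rsm1 deletion and 28.3, 27.2 and 25.3 CPM in WT (log2 fold change -0.88, SE 0.064, adjusted p = 6.42e-07). So for this pair the gene was higher and its upstream RNA lower in nup211-1435. The upstream RNA nc-pho1 (-0.37, SE 0.10, adjusted p = 0.0082) lost its call without replicate 2 of either mutant, with adjusted p of 0.0520 and 0.0602. The transporter gene tgp1 (0.058, SE 0.076, adjusted p = 0.544) and its upstream RNA nc-tgp1 (0.019, SE 0.059, adjusted p = 0.809) were not called. By annotation pho84 overlaps prt2 over 1870 nt of the same strand, and pho1 overlaps nc-pho1 over 1413 nt, so reads of these pairs may have been assigned to either or dropped.

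Of 13 regulators of phosphate and inositol pyrophosphates, 7 were lower (53.8%) and 2 higher (15.4%) in nup211-1435, beside 25.7% and 24.5% over all features. The higher ones included asp1, whose locus is marked in that strain. Among the lower ones, the transcription factor gene pho7 had 116, 111 and 129 CPM in nup211-1435, 146, 154 and 149 CPM in the strain labelled rsm1 deletion and 77.3, 76.1 and 78.2 CPM in WT (log2 fold change -0.34, SE 0.045, adjusted p = 2.64e-05). Lower too were aps1, a pyrophosphatase gene (-0.38, SE 0.035), and pqr1, which encodes a ubiquitin ligase (-0.35, SE 0.038). Against WT, 7 of the 13 regulators were higher and 2 lower in nup211-1435. The medians were 0.212 there and 0.189 in the strain labelled rsm1 deletion.

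Between the mutants adhesion genes leaned lower, with 12 of 17 lower (70.6%) and 2 higher (11.8%) in nup211-1435 and a median of -0.196. Against WT, 12 were higher and 3 lower in nup211-1435, with medians of 0.221 there and 0.417 in the strain labelled rsm1 deletion. The transcription factor gene cbf12 had 89.9, 98.5 and 108 CPM in nup211-1435, 193, 185 and 181 CPM in the strain labelled rsm1 deletion and 39.4, 44.7 and 38.4 CPM in WT (log2 fold change -0.92, SE 0.064, adjusted p = 5.47e-07). Surface glycoprotein genes of the pfl family went both ways, with pfl7 lower (-1.32, SE 0.30) and pfl9 higher (1.24, SE 0.19) in nup211-1435, and both were highest in WT. Of 30 septum and cell wall genes, 11 were higher and 11 lower (36.7% each). The surface protein gene adg1 (0.77, SE 0.081) was on the higher side and the wall protein gene psu1 (-0.64, SE 0.071) on the lower. Heterochromatin and RNA interference genes were lower in 8 and higher in 3 of 28 (1 higher without replicate 2 of nup211-1435), with clr1 (-0.34, SE 0.037) and chp1 (-0.28, SE 0.037) among the lower ones. Against WT, 18 of the 28 were higher and 4 lower in nup211-1435. Histone genes were lower in 4 and higher in 1 of 10, and G1/S genes of the MBF complex were lower in 5 and higher in 4 of 20 (4 lower and 5 higher under upper quartile scaling). Of 9 thiamine genes 2 were called in each direction, with the thiamine diphosphokinase gene tnr3 (0.41, SE 0.042) higher and bsu1, annotated as a vitamin B6 carrier (-0.32, SE 0.062), lower. Over all features 25.7% were lower and 24.5% higher. The lower and higher shares were 28.6% and 10.7% for heterochromatin, 25% and 20% for MBF and 22.2% each for thiamine genes, near or under those of all features. For histone genes they were 40% and 10%. The spore wall glucan synthase gene mok12 had 116, 121 and 124 CPM in nup211-1435, 80.6, 80.9 and 79.9 CPM in the strain labelled rsm1 deletion and 46.1, 45.0 and 46.2 CPM in WT (log2 fold change 0.58, SE 0.035, adjusted p = 9.47e-09). The glucosidase gene exg1 had 303, 296 and 273 CPM in nup211-1435, 419.7, 427 and 442 CPM in the strain labelled rsm1 deletion and 271, 265 and 266 CPM in WT (log2 fold change -0.56, SE 0.037, adjusted p = 2.22e-08), with nup211-1435 nearest WT.

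Noncoding RNAs made up 18.42% of all features tested, 50.39% of those at least 2-fold lower and 35.19% of those at least 2-fold higher in nup211-1435. Features under 10 CPM in both strains made up 55.12% of those at least 2-fold lower and 51.85% of those at least 2-fold higher, against 20.59% of all tested. In counts, 246 of 1147 SPNCRNA features were lower (21.4%) and 168 higher (14.6%), beside 25.7% and 24.5% of all features. Above 10 CPM, SPNCRNA.716 had 24.1, 19.4 and 21.8 CPM in nup211-1435, 99.7, 99.8 and 95.8 CPM in the strain labelled rsm1 deletion and 36.4, 43.1 and 42.2 CPM in WT (log2 fold change -2.18, SE 0.073, adjusted p = 1.86e-10). SPNCRNA.322 had 10.4, 9.22 and 8.62 CPM in nup211-1435, 41.1, 41.9 and 38.2 CPM in the strain labelled rsm1 deletion and 16.6, 15.6 and 16.2 CPM in WT (log2 fold change -2.11, SE 0.072, adjusted p = 1.28e-11). Both RNAs were lowest in nup211-1435 and highest in the strain labelled rsm1 deletion. The RNase P RNA rrk1, not polyadenylated as a rule, had 10.7, 25.9 and 30.6 CPM in nup211-1435, 5.92, 7.16 and 6.45 CPM in the strain labelled rsm1 deletion and 12.8, 13.9 and 14.6 CPM in WT (log2 fold change 1.79, SE 0.40, adjusted p = 0.0087), and replicate 1 of nup211-1435 was far below its fellows. Of 37 snoRNA and snRNA features, 9 were higher (24.3%) and 4 lower (10.8%), but 2 were higher and 3 lower without replicate 2 of nup211-1435.

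Among the outermost annotated features of chromosomes I and II, 18 of 56 tested were higher (32.1%) and 12 lower (21.4%), beside 24.5% and 25.7% over all features. At least 2-fold higher were 12, while with 10 CPM required in 3 libraries 5 were higher and 6 lower. SPAC750.01, of the aldo/keto reductase family, had 314, 319 and 312 CPM in nup211-1435, 88.0, 52.0 and 109 CPM in the strain labelled rsm1 deletion and 6.63, 40.9 and 31.6 CPM in WT (log2 fold change 1.93, SE 0.47, adjusted p = 0.0145). It varied widely in the strain labelled rsm1 deletion and in WT, and its call was lost without replicate 2 of the strain labelled rsm1 deletion (adjusted p = 0.0514). The membrane protein gene ftm4 had 8.27, 9.34 and 10.8 CPM in nup211-1435, 0.150, 0.157 and 2.23 CPM in the strain labelled rsm1 deletion and 0.0422, 2.74 and 5.22 CPM in WT (log2 fold change 3.62, SE 1.02, adjusted p = 0.0258), and it lost its call without any one library of nup211-1435 or replicate 1 or 2 of the strain labelled rsm1 deletion (adjusted p = 0.0502 to 0.0853). Reads of such repeated gene families can be split between copies.

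Some of the 2-fold features were neighbours. Taking tested features in annotated order, a view added after the values were seen, 51 of the 181 features at least 2-fold apart stood in 21 runs of neighbours with the same direction, of which 14 were pairs. In 5 of the runs, members overlapped each other on opposite strands, so with the strand setting unknown they may share reads. The longest run, of 5 features, held shu1 and str3 with the gluconate transporter gene ght3, SPNCRNA.603 and SPAPJ695.02. The uncharacterized gene SPAPJ695.02 had 4.89, 4.59 and 5.195 CPM in nup211-1435, 23.9, 23.6 and 23.5 CPM in the strain labelled rsm1 deletion and 7.09, 6.08 and 6.40 CPM in WT (log2 fold change -2.27, SE 0.084, adjusted p = 2.75e-11). A little beyond, the hydrolase gene hhy1 had 3.02, 1.87 and 2.44 CPM in nup211-1435, 11.8, 10.7 and 11.8 CPM in the strain labelled rsm1 deletion and 2.41, 2.66 and 2.67 CPM in WT (log2 fold change -2.22, SE 0.14, adjusted p = 1.18e-08). By annotation SPNCRNA.605 shares 1493 nt with hhy1 on the opposite strand, and it was lower in nup211-1435 too (-0.88, SE 0.13). Its means were 31.9 CPM in nup211-1435, 58.6 CPM in the strain labelled rsm1 deletion and 11.7 CPM in WT. Whether reads of the 2 were kept apart was not tested. For the features named along this stretch the strain labelled rsm1 deletion was the high one. Another such pair was ght5 with the neighbouring feature SPCC1235.18 (-2.83), while SPCC1235.17, the next feature after SPCC1235.18, was higher in nup211-1435 (1.33, SE 0.10).

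In a second stretch, several genes were low in nup211-1435. Between the mating type loci mat1 and mat3, 9 of 10 tested features were called lower in nup211-1435, also seen only after the fact. The proteasome ATPase gene rpt6 (SPBC23G7.12c) had 127, 134 and 128 CPM in nup211-1435, 294, 282 and 291 CPM in the strain labelled rsm1 deletion and 250.4, 266 and 255 CPM in WT (log2 fold change -1.16, SE 0.034, adjusted p = 3.33e-12). The ribosomal stalk protein gene rpp202 had 332, 332 and 312 CPM in nup211-1435, 720.1, 671 and 676 CPM in the strain labelled rsm1 deletion and 942, 976 and 913 CPM in WT (log2 fold change -1.08, SE 0.037, adjusted p = 1.3e-11). For rpt6 and rpp202 nup211-1435 was the lowest strain. The features did not all stand alike to WT. SPBC23G7.14 (-1.08, SE 0.062), SPBC23G7.13c (-1.42, SE 0.24), SPNCRNA.388 (-1.16, SE 0.066) and SPNCRNA.1488 (-0.84, SE 0.066) were lower and lay below WT as well, whereas SPBC23G7.10c was not called (-0.19, SE 0.0999, adjusted p = 0.14). By contrast mag2 averaged 1.00 CPM in nup211-1435, 2.01 CPM in the strain labelled rsm1 deletion and 0.527 CPM in WT, and snR92 averaged 2.72 CPM in nup211-1435, 4.06 CPM in the strain labelled rsm1 deletion and 2.73 CPM in WT. In both of these the strain labelled rsm1 deletion was called higher than WT. In nup211-1435, mag2 was also called higher than WT (0.93, SE 0.30, adjusted p = 0.0122), and snR92 was not called against WT (-0.0023, SE 0.17, adjusted p = 0.992). SPNCRNA.1487 was under WT in both mutants, with 2.81 CPM in nup211-1435, 5.12 CPM in the strain labelled rsm1 deletion and 20.96 CPM in WT. Outside the loci, cms1 on the mat1 side (0.48, SE 0.046) was higher, emc3 on the mat3 side was not called (0.060, SE 0.041, adjusted p = 0.245), and rga7, next to mat1, was lower (-0.88, SE 0.040), with 115 CPM in nup211-1435, 212 CPM in the strain labelled rsm1 deletion and 122 CPM in WT. The DNA of these strains was not measured here.

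**Figure D5:**
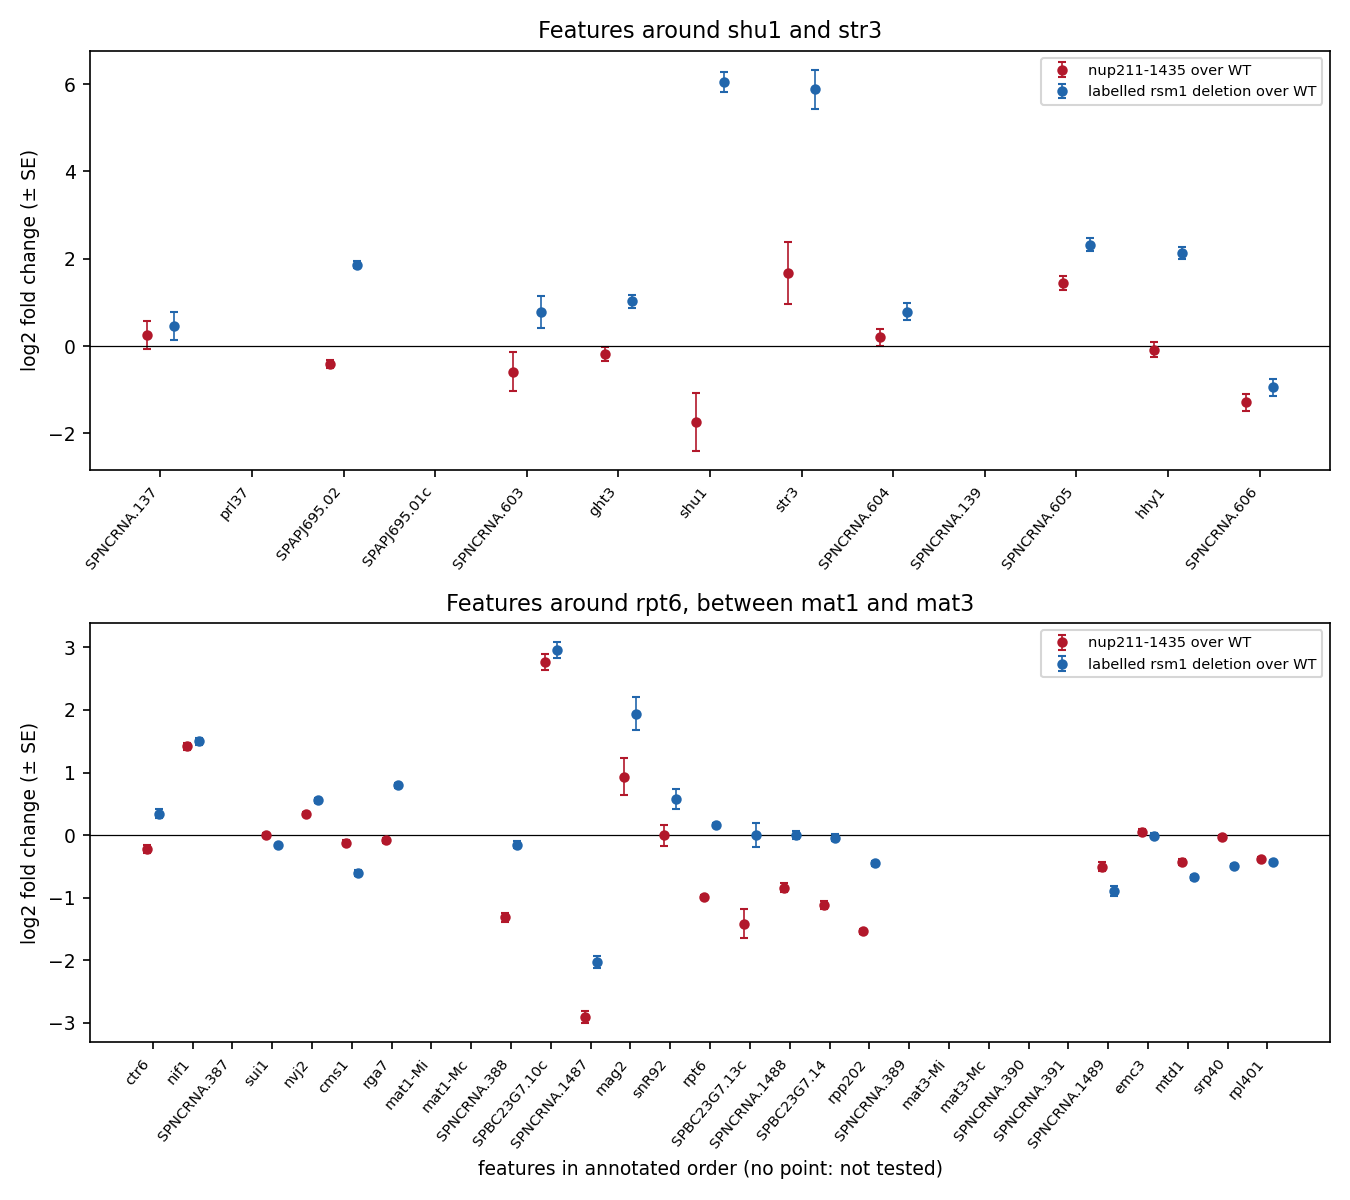
Features in annotated order around shu1 and str3 (above) and around rpt6 between mat1 and mat3 (below), each with its log2 fold change over WT (± SE from the fit) in nup211-1435 (red) and in the strain labelled rsm1 deletion (blue); features not tested have no point, and both colours share the WT libraries. In the upper panel blue reaches 6.05 at shu1, and in the lower panel rpt6, at -0.99 in red and 0.17 in blue, is one of a row of neighbours with red below blue.

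A few of the largest rises had antisense partners that also differed. The gene gnr1, for a G protein beta subunit of the pheromone pathway, had 34.4, 30.7 and 24.6 CPM in nup211-1435, 12.4, 11.6 and 11.5 CPM in the strain labelled rsm1 deletion and 8.48, 7.41 and 8.65 CPM in WT (log2 fold change 1.33, SE 0.11, adjusted p = 7.51e-07). Its antisense RNA SPNCRNA.1158 averaged 16.5 CPM in nup211-1435, 38.2 CPM in the strain labelled rsm1 deletion and 29.5 CPM in WT, a log2 fold change of -1.21. For the uncharacterized gene SPCC1884.01, the levels were 10.8, 10.08 and 10.04 CPM in nup211-1435, 4.46, 3.03 and 3.90 CPM in the strain labelled rsm1 deletion and 8.10, 9.06 and 8.04 CPM in WT (log2 fold change 1.44, SE 0.12, adjusted p = 3.36e-07), and its partner SPNCRNA.1096 was higher too, by 0.96. One partner thus moved against its gene and the other with it.

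Some genes stood on opposite sides of WT in the 2 strains. The rule for these took features called in all 3 comparisons, in opposite directions against WT, and the 8 with the largest difference between the mutants were shu1, omt3, ght5, ctr4, ptr2, mei2, SPAPJ695.02 and isp4. All 8 were called lower than WT in nup211-1435 and higher than WT in the strain labelled rsm1 deletion. For shu1 the lower side, -1.74 (SE 0.65), adjusted p = 0.036, rests on levels near the floor of 3 counts in nup211-1435 and is weakly fixed. For ght5 the values were -1.75 (SE 0.26) in nup211-1435 and 1.32 (SE 0.24) in the strain labelled rsm1 deletion, and for ctr4 they were -1.04 (SE 0.36) and 1.61 (SE 0.33) in the same order. For omt3 nearly all of the distance was on the nup211-1435 side, at -3.40 (SE 0.15) beside 0.32 (SE 0.10), and for SPAPJ695.02 on the other, at -0.41 (SE 0.098) beside 1.86 (SE 0.081).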

How the data were processed

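The authors deposited raw read counts for 6988 features in 9 libraries, prepared from hot acid phenol RNA with a stranded TruSeq mRNA kit, per the labels' protocols. Per the submitters' processing notes, the tools were HISAT2 2.1.0, HTSeq 0.10.0, SAMtools and DESeq2, on build ASM294v2. No source used here gives the annotation or the strand setting. The authors' DESeq2 tables against WT were not used. Names, order, lengths and overlaps came from assembly ASM294v3 (6836 features matched by identifier, 3 by synonym, 149 unmatched), and no coordinates or sequences are printed.

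edgeR 4.0.16 in R 4.3.3 was run on the counts: filterByExpr (minimum count 10, minimum total count 15; 6227 kept), TMM scaling, and a robust quasi-likelihood fit to all 9 libraries without covariates. Adjustment was by Benjamini and Hochberg over all features. DESeq2 1.42.0 was an alternative. Stated levels are per library. The labels call the libraries replicates of one strain each, so p-values measure the spread between these cultures. Replicates differed by more than sampling noise (chi-square per degree of freedom 2.8 to 11.9). On simulated counts for this comparison (6187 genes), 84% of 100 genes changed 1.5-fold and 96% of 100 changed 2-fold were recovered, and 7.22% of calls were false. The simulation changed only these genes, and all groups took their mean levels from the strain labelled rsm1 deletion. In the data 50.2% of features were called, so these shares do not carry over to the calls reported here.

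The comparison and gene lists were chosen with earlier results of these data known. Named genes were the 12 largest rises and falls at 10 CPM or more without overlap, the targeted genes, the PHO list, up to 4 called members of each list, and 8 genes on opposite sides of WT; others, neighbours of loci included, were named after their values were seen. Replicate numbers did not pair the libraries.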

Additional observations from a re-analysis of the deposited data

How the results depend on the processing

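The count of features called between nup211-1435 and the strain labelled rsm1 deletion, 3128, was 3140 with DESeq2 size factors, 3100 with total counts, 3130 with upper quartile scaling, 3111 without a filter, 2791 at 10 CPM in 3 libraries, 3242 with the 6 mutant libraries alone and 2956 in DESeq2. Leaving out 1 library at a time gave 2635 to 3225. The 181 features at least 2-fold apart became 85 at 10 CPM in 3 libraries, where 4992 features were tested, and 172 to 199 in the other settings. The share of calls that were higher in nup211-1435 ranged from 46.77% to 56.77%, beside 48.79% as reported, and no scaling moved the median of all features past 0.0261. No named gene changed direction. The calls of psi1, hht3, alm1, hba1, rps2801, tdh1, meu15, ftm4, tlh2, nc-pho1, SPAC750.01 and 3 snoRNAs were lost in 1 or more settings, and the cause was not tested. Low counts limit the subtelomeric and most noncoding features.

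With the replicate number as a block, 3133 features were called and 182 were at least 2-fold apart, and no call of a named gene changed. Libraries of the 2 strains with the same number had deviations that correlated at 0.056, -0.019 and 0.082, and not every library correlated best with its own number, so the numbers were not taken as pairs.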
